A study of Mus musculus with 4 samples.

Results

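The proteasome genes of neonatal mouse spermatogonia were described as a family of 48 genes, chosen by symbol among the 43998 entries of an RNA-seq table: Psma, Psmb, Psmc, Psmd, Psme, Psmf or Psmg followed by a number. All 48 had a value, and 47 reached an RPKM of 1 in at least 1 genotype. RPKM stands for reads scaled to transcript length and to sequencing depth. The cells were testicular, from C57BL/6 mice at postnatal day 4, and had been enriched on magnetic columns for THY1 (CD90.2), which marks undifferentiated spermatogonia. They were sequenced in 2 libraries from mice with a germ cell mutation of retinoic acid (RA) signalling, called mutant here, and 2 libraries from control mice. The labels name neither the modified gene nor the driver that limits it to germ cells, and do not say whether animals were pooled or whether controls carried any allele.

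Each genotype had 1 combined RPKM value for its 2 libraries. The spread between replicates is therefore unknown, and no value has an SD, an n or a p-value. Differences are given as log2((mutant RPKM + 1) / (control RPKM + 1)), which understates those of low genes, or as plain ratios of RPKM. Steps between low values placed the depth near 57.3 M reads behind the mutant column and 56.0 M behind the control column, if no further scaling factor entered. All 10 germ cell markers looked up were present in both genotypes, with the RNA-binding protein gene Dazl at 353 RPKM in mutant and 274 RPKM in control. Markers of macrophages, Leydig cells and Sertoli cells were present as well, so the values describe an enriched and not a pure population. In such bulk values fewer cells of a type and less RNA per cell cannot be told apart.

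The 26S proteasome degrades proteins tagged with ubiquitin. Its 20S core is a barrel of alpha and beta rings with the cutting sites inside, and its 19S cap recognises, unfolds and feeds in the substrate through a ring of ATPases (base) and a set of further subunits with a deubiquitinase (lid). Cells can exchange parts: interferon-inducible beta subunits form the immunoproteasome of leukocytes, and in male germ cells of the mouse the alpha subunit encoded by Psma8 and the activator PA200, encoded by Psme4, form the spermatoproteasome needed for spermatogenesis.

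Most proteasome genes had similar values in mutant and control spermatogonia. Among the exchangeable subunits the 3 immunoproteasome genes were lower in the mutant and Psma8 was higher, but some other members differed as well. Psmb3 at -0.59 lay further from 0 than Psmb9 at -0.51 and Psmb10 at -0.53. Psmd7 at 0.40 differed by less than the immunoproteasome genes and Psma8. Of 2 scalings that move all genes alike, equal column sums shifted the median of all genes to 0.14 and rescaling to germ cell markers shifted it to -0.58. A sign that turns under either of them is set in part by that shift and is no measure of a member's stability. Equal column sums can turn only a negative sign, and rescaling to germ cell markers only a positive one. Changing the constant added to RPKM, or the RPKM limit, cannot turn a gene's sign. None of the 47 genes with an RPKM of 1 or more differed by 2-fold, whereas 8.74% of the 16473 genes compared did (4.4% higher and 4.35% lower). At 1.5-fold, a limit taken after the values had been seen, 2 were higher (Psma8 and Psmb5) and 2 lower (Psmb8 and Psmb3), or 8.51% of the 47. The share over all genes compared was 26.4%, made up of 12.7% higher and 13.7% lower. Among the 12202 protein-coding genes, 5.38% differed by 2-fold (1.31% higher and 4.07% lower) and 21.7% by 1.5-fold (6.76% higher and 14.9% lower). At both limits the share of proteasome genes was below that of the genes compared.

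**Figure D1:**
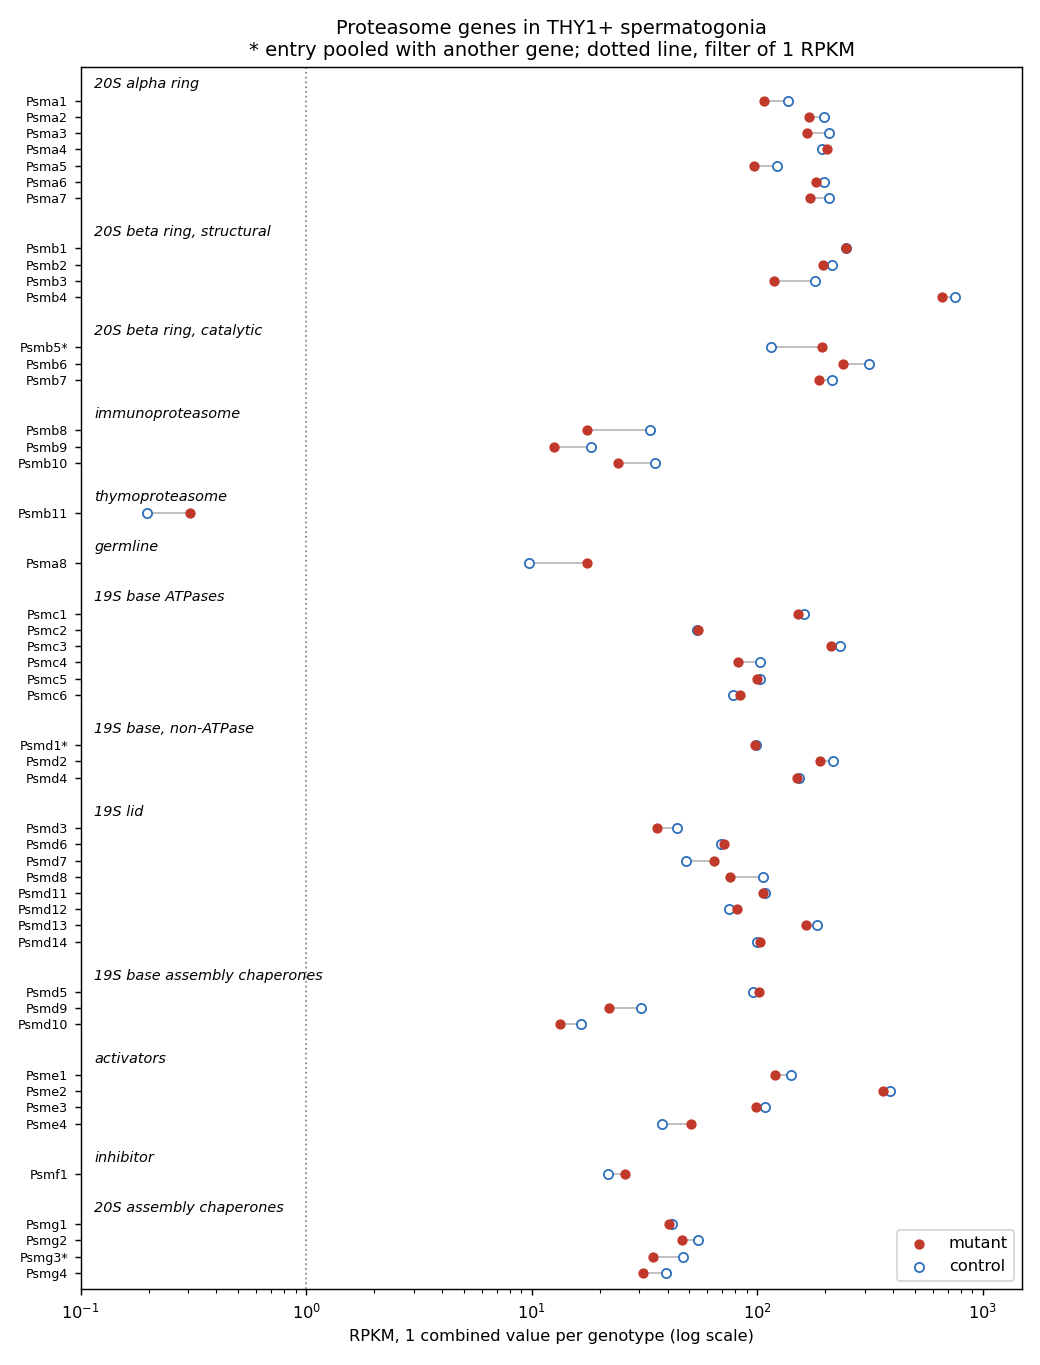
RPKM of each of the 48 proteasome genes in mutant (filled red) and control (open blue), grouped by role, on a log axis. Each point is 1 combined value of 2 libraries, so no error is shown. The constitutive core and cap genes lie between 35.8 and 658 RPKM in the mutant, most with their paired points close together. The immunoproteasome genes and Psma8 lie lower with their points apart. The points of the core genes Psmb5 and Psmb3 are also apart, further than those of Psmb9 and Psmb10.

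The 31 constitutive core and cap genes, those every cell uses, were abundant in both genotypes. They ranged from 35.8 to 658 RPKM in mutant and from 44.0 to 757 RPKM in control, with sums of 4764 RPKM in mutant and 5236 RPKM in control. Their median log2 difference was -0.13, with 8 above 0 and 23 below, and it changed sign to 0.0061 with quantile normalization and to 0.031 after scaling to equal column sums, where it was -0.11 relative to the shifted median of all genes. The 1823 protein-coding genes with a mean of 50 RPKM or more had a median of -0.11, with 61.5% below 0 and quartiles of -0.42 and 0.15. Of the 31 constitutive genes, 27 lay inside those quartiles, 2 below (Psmb3 and Psmd8) and 2 above (Psmb5 and Psmd7). The order of the genes was shared between genotypes as well: across the 47 genes Spearman's rho between mutant and control RPKM was 0.968, a description over genes measured in the same libraries.

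**Figure D2:**
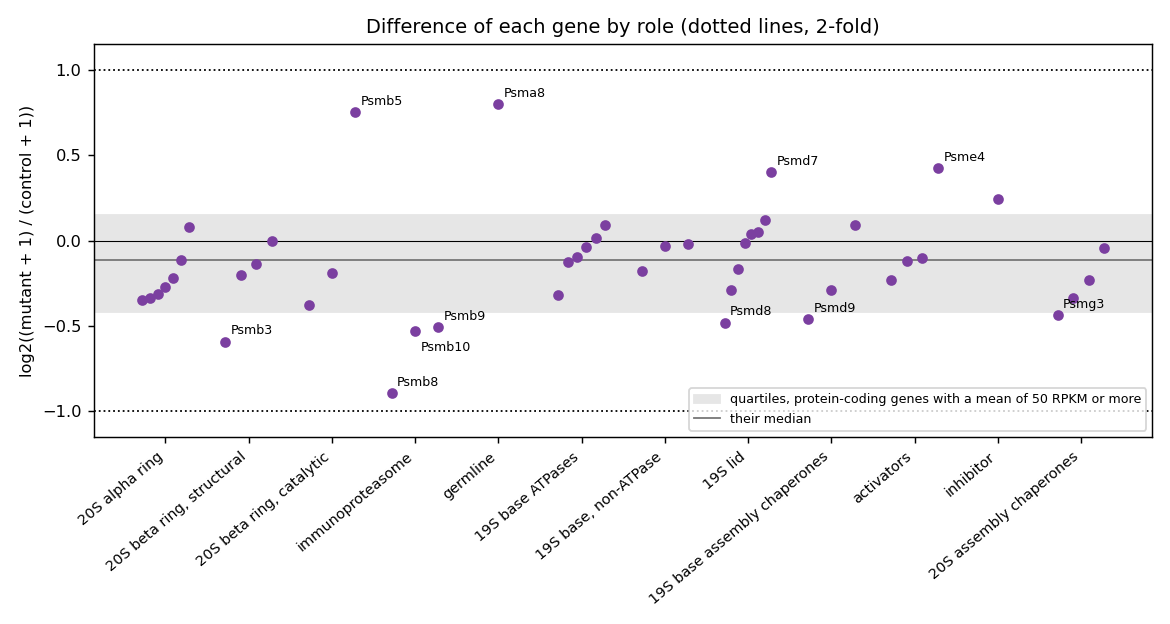
Log2 difference of each of the 47 genes with an RPKM of 1 or more, grouped by role, with genes beyond 0.4 in size named. The grey band spans -0.42 to 0.15, the quartiles of protein-coding genes with a mean of 50 RPKM or more, and the dotted lines mark 2-fold. Psma8 and Psmb5 lie highest and Psmb8 lowest, and no point reaches a dotted line with the values as deposited.

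The alpha ring, which gates the entrance of the 20S barrel, was slightly lower in the mutant for 6 of its 7 genes. The ring's median log2 difference was -0.27. It stayed below 0 with quantile normalization, with equal column sums and after adjustment for length and GC content, the alternatives that could turn its sign. Psma1, the largest of these differences, was at 107 RPKM in mutant and 137 RPKM in control. Psma5 was at 97.2 RPKM in mutant and 123 RPKM in control, a log2 difference of -0.34. Psma7, whose protein takes the ring position that PSMA8 can occupy, was at 172 RPKM in mutant and 208 RPKM in control. Psma2 and Psma3 had log2 differences of -0.22 and -0.31. Psma6 was closer, at 183 RPKM in mutant and 198 RPKM in control, and its sign turned with quantile normalization and with equal column sums. Psma4 was the member above 0, at 204 RPKM in mutant and 193 RPKM in control, and it fell below 0 when rescaled to the germ cell markers. The levels of the ring's 7 genes were within 2.10-fold of each other in mutant and 1.69-fold in control. Their median transcript length was 1201 nt, within the shortest length decile of protein-coding genes, whose median log2 difference was also -0.27. After adjustment for length and GC content, fitted over protein-coding genes, the ring's median was -0.20. The comparison median was then -0.074, and that of protein-coding genes before adjustment was -0.064.

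The beta ring's structural subunits, which carry no cutting site, were at or below the control level in the mutant, with a median of -0.17 that became 0.0032 after adjustment for transcript length and GC content. Psmb4 was the most abundant proteasome gene, at 658 RPKM in mutant and 757 RPKM in control. Psmb3 had the largest difference of the constitutive genes below 0, at 119 RPKM in mutant and 180 RPKM in control, 1.51-fold lower. Psmb1 hardly differed, at 247 RPKM in mutant and 248 RPKM in control. Psmb2 was at 195 RPKM in mutant and 214 RPKM in control. The Psmb3 difference was -0.59, and it ranged from -1.29 to -0.38 over the alternatives.

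The 3 constitutive cutting subunits did not move together. Psmb6, the caspase-like site, was at 240 RPKM in mutant and 312 RPKM in control, and Psmb7, the trypsin-like site, was at 187 RPKM in mutant and 214 RPKM in control. Psmb5, the chymotrypsin-like site, was 1.69-fold higher in the mutant, at 194 RPKM in mutant and 114.7 RPKM in control. The deposited entry for Psmb5 also carried the symbol Mir686. In GENCODE M21 that microRNA gene of 109 nt lies on chromosome 14 from 54616677 to 54616785 in GRCm38, on the same strand and within an exon of 2 Psmb5 transcripts. The sources used here do not say how the entry was summed over the 2 symbols, so the Psmb5 value cannot be told apart from a value of Mir686. The log2 difference of that entry was 0.75 and remained above 0 in the alternatives that could turn its sign, from 0.050 to 0.99.

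The immunoproteasome genes were all lower in the mutant. They stayed below 0 with quantile normalization, with equal column sums and after adjustment for length and GC content, the alternatives that could turn their sign. Psmb8, which replaces Psmb5, was at 17.5 RPKM in mutant and 33.4 RPKM in control, 1.91-fold lower. Its mutant to control ratio was 0.525 (95% counting interval 0.491 to 0.560, exact binomial), from about 1422 mutant and 2669 control reads. Psmb9, which replaces Psmb6, was at 12.6 RPKM in mutant and 18.3 RPKM in control, 1.45-fold lower. Psmb10, which replaces Psmb7, was at 24.02 RPKM in mutant and 35.1 RPKM in control, 1.46-fold lower. The interval covers counting error only and not the difference between animals or libraries. The group's median log2 difference was -0.53, and it was -0.29 after adjustment for length and GC content and -1.20 when rescaled to germ cell markers. Psmb8 and Psmb9 are neighbours on chromosome 17, annotated in GRCm38 from 34197721 to 34201454 and from 34181987 to 34187764, and both lie beside the peptide transporter genes Tap2 and Tap1. Psmb10 is on chromosome 8, from 105935735 to 105938444. In the table the intervals of all 3 entries also hold other genes, Tap2, Gm15821 and Gm20496 for Psmb8, Tap1 for Psmb9, and Gm16156, Lcat, Mir7074 and Slc12a4 for Psmb10, and how reads in overlaps were assigned is not stated.

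The promoters of the inducible subunits, and of those constitutive counterparts in the table used, are shown because these paired genes differed unequally between mutant and control. Each sequence runs from 250 bases before to 50 bases after the start of the RefSeq gene model, 5′ to 3′ on the gene's strand, on GRCm38.p6. For Psmb8 and Psmb9 that start lies downstream of the GENCODE start given above, and the whole window lies inside the GENCODE gene. Capitals mark matches, on either strand, to an antioxidant response element (TGACNNNGC), an interferon stimulated response element (a pair of TTTC with NN between them), a gamma activated site (TTCNNNGAA), a CCAAT box (CCAAT) or a TATA box (TATAAA). No marked matches overlap.
Psmb8, chr17:34197945-34198244, plus strand: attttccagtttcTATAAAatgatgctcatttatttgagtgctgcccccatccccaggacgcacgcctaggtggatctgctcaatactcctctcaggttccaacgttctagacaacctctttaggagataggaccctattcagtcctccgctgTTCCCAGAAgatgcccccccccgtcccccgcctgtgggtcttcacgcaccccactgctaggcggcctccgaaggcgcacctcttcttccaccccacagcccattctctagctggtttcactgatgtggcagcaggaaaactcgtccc
Psmb9, chr17:34187281-34187580, minus strand: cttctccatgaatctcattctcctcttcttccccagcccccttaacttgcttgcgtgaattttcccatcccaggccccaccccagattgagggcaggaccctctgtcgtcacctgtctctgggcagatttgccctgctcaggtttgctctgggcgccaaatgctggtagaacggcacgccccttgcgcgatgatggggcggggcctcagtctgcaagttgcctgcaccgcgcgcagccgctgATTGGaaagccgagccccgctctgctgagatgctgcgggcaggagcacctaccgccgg
Psmb10, chr8:105938343-105938642, minus strand: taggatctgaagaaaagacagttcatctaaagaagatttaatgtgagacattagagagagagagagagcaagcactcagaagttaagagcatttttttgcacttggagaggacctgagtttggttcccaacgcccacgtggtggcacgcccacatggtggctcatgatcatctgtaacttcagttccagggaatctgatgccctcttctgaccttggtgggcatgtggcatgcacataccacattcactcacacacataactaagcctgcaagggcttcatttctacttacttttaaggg
Psmb5, chr14:54617946-54618245, minus strand: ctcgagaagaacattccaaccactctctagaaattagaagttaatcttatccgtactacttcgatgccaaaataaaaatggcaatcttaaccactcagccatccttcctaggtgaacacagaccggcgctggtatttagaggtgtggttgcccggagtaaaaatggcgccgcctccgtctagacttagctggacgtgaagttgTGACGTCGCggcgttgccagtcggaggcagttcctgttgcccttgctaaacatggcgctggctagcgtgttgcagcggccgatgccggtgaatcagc
Psmb6, chr11:70525107-70525406, plus strand: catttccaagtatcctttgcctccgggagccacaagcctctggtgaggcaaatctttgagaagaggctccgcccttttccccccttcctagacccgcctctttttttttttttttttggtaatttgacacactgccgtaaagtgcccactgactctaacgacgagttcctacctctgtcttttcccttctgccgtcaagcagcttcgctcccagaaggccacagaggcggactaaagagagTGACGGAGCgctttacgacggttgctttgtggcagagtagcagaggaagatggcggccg
Counted from the start, the Psmb8 window held 1 gamma activated site match at -97 and 1 TATA box match at -237. The Psmb9 window held 1 CCAAT match, on the reverse strand at -8, and the Psmb10 window held no match. The Psmb5 and Psmb6 windows each held 1 antioxidant response element match, at -47 in Psmb5 and at -9 in Psmb6. That element is bound by NFE2L1 and NFE2L2, transcription factors known to raise proteasome genes. Of the 48 genes, 40 had a promoter in the table used. The antioxidant response element letters were in 6 of the 40 (15.0%) and in 12.5% of all 27025 promoters. The interferon stimulated response element letters were in 5 of the 40 (12.5%; Psmb3, Psmd4, Psmd9, Psme1 and Psmg4) and in 3.49% of all promoters. Gamma activated site letters were in 3 of the 40 and in 8.47% of all promoters, CCAAT in 14 of the 40 and in 37.9%, and TATAAA in 4 of the 40 and in 14.2%. The proteasome windows were richer in CpG, with a median of 19 CG pairs, while the median over all promoters was 7. These letter matches describe the windows and show no binding.

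Relative to the subunits they replace, the inducible subunits made up a smaller part in the mutant. The level per length of Psmb8 was 9.03% of Psmb5 in mutant and 29.1% in control, a comparison that rests on the entry shared with Mir686. Psmb9 stood at 5.23% of Psmb6 in mutant and 5.84% in control, and Psmb10 at 12.8% of Psmb7 in mutant and 16.4% in control. Summed over the 3 pairs, the inducible subunits came to 8.70% of the constitutive ones in mutant and 13.5% in control, 1.55-fold lower. Without the Psmb8 and Psmb5 pair the shares were 8.55% in mutant and 10.1% in control, 1.19-fold lower. Most of the shift in the summed share therefore came from the pair that holds the pooled Psmb5 entry.

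**Figure D3:**
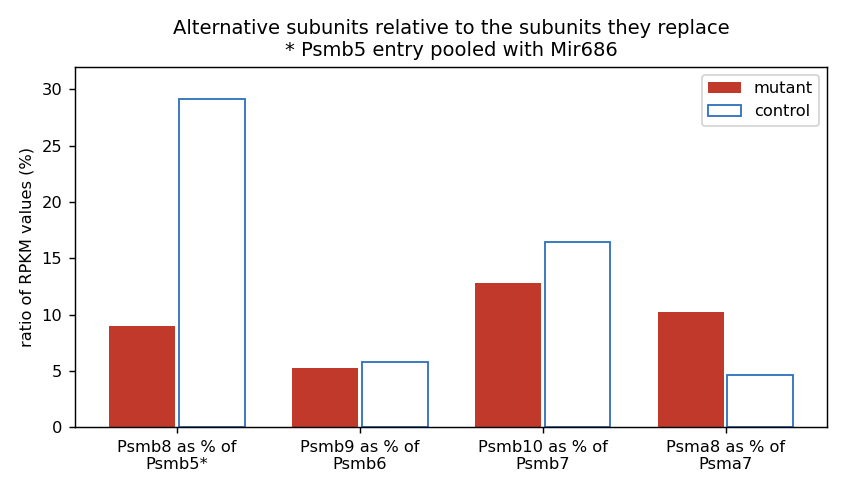
RPKM of each alternative subunit as a percentage of the subunit it replaces, in mutant (filled red, left of each pair) and control (open blue, right), with the axis starting at 0. Psmb8, Psmb9 and Psmb10 had a smaller percentage in mutant, while Psma8 came to 10.3% of Psma7 in mutant and 4.67% in control.

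Psma8, the germline alpha subunit, was 1.81-fold higher in the mutant, at 17.7 RPKM in mutant and 9.74 RPKM in control. About 1499 reads stood behind the mutant value (95% Poisson interval 1424 to 1577) and about 814 behind the control value (759 to 872), taking the longest annotated protein-coding transcript. The ratio had a counting interval of 1.66 to 1.98 (exact binomial, 95%). Such intervals left out 1 for 40 of the 48 genes, near-flat ones such as Psma6 and Psmd14 included, and so set neither Psma8 nor Psmb8 apart. The Psma8 log2 difference of 0.80 ranged from 0.14 after rescaling to germ cell markers to 0.95 with equal column sums. Relative to Psma7, Psma8 came to 10.3% in mutant and 4.67% in control, a ratio 2.19-fold higher in the mutant. Psma7 thus remained the far more abundant of the pair in both genotypes. Psmb11, the thymus-specific beta subunit, was the member under an RPKM of 1, at 0.306 RPKM in mutant and 0.196 RPKM in control.

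The 19S base, whose 6 ATPases unfold the substrate, differed little. The ATPase median was -0.066 and changed sign with quantile normalization, with equal column sums and after adjustment for length and GC content. Psmc4 had the largest difference, at 82.1 RPKM in mutant and 103 RPKM in control. Psmc3, the most abundant ATPase gene, was at 212 RPKM in mutant and 232 RPKM in control. Psmc6 and Psmc2 were slightly above 0, at 83.5 RPKM in mutant and 78.3 RPKM in control for Psmc6 and at 54.7 RPKM in mutant and 54.2 RPKM in control for Psmc2. Psmc1 and Psmc5 lay between, at -0.094 and -0.039. Of the other base subunits, Psmd2, the scaffold RPN1, was at 191 RPKM in mutant and 216 RPKM in control. Psmd4, the ubiquitin receptor RPN10, was at 149 RPKM in mutant and 153 RPKM in control. Psmd1, the scaffold RPN2, shared its entry with Armc9 and Gm21972 and stood at 97.6 RPKM in mutant and 99.1 RPKM in control.

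The lid split evenly, with 4 genes above 0 and 4 below and a median of 0.010 that turned negative when rescaled to germ cell markers. Psmd7, which encodes RPN8, the partner of the lid's deubiquitinase, was 1.33-fold higher in the mutant, at 64.1 RPKM in mutant and 48.3 RPKM in control. The deubiquitinase gene itself, Psmd14 (RPN11), was at 103 RPKM in mutant and 99.7 RPKM in control. Psmd8 (RPN12) lay at the other end, 1.40-fold lower at 75.5 RPKM in mutant and 106 RPKM in control. Psmd7 was at -0.29 after rescaling to germ cell markers, which was 0.29 relative to the shifted median of all genes. Psmd8 stayed below 0 in the alternatives that could turn its sign. Psmd3 was at 35.8 RPKM in mutant and 44.0 RPKM in control, and Psmd13 at 164 RPKM in mutant and 185 RPKM in control. The remaining lid genes, Psmd6, Psmd11 and Psmd12, had log2 differences of 0.037, -0.016 and 0.12.

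Among the activators, which open the core in place of the 19S cap, Psme4 differed from the rest. Psme4 was 1.35-fold higher in the mutant, at 51.0 RPKM in mutant and 37.7 RPKM in control, with a log2 difference of 0.43 that was -0.26 after rescaling to germ cell markers, or 0.32 relative to the shifted median of all genes. Psme1 and Psme2, the interferon-inducible PA28 alpha and beta subunits, were at 120 RPKM in mutant and 141 RPKM in control and at 361 RPKM in mutant and 387 RPKM in control. Psme3, the nuclear PA28 gamma subunit, was at 99.0 RPKM in mutant and 108 RPKM in control. Relative to Psme3, Psme4 came to 51.5% in mutant and 34.9% in control. The interferon-inducible activator genes thus showed smaller differences, -0.23 and -0.10, than the inducible beta subunits. Psmf1, which encodes the core inhibitor PI31, was at 25.98 RPKM in mutant and 21.8 RPKM in control, and its difference of 0.24 was -0.43 after rescaling to germ cell markers, or 0.15 relative to the shifted median.

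Assembly chaperones were mostly lower in the mutant. The 20S chaperone genes Psmg1 to Psmg4 all lay below 0 with a median of -0.28, although Psmg1, at 40.7 RPKM in mutant and 42.0 RPKM in control, turned positive with equal column sums and after adjustment for length and GC content. Psmg3 was at 34.4 RPKM in mutant and 46.8 RPKM in control, in an entry shared with Gm26938 and Tmem184a. Psmg2 was at 46.3 RPKM in mutant and 54.5 RPKM in control, and Psmg4 at 31.0 RPKM in mutant and 39.4 RPKM in control. Of the 3 chaperones of the 19S base, Psmd9 was 1.39-fold lower at 22.03 RPKM in mutant and 30.7 RPKM in control. Psmd10, which encodes gankyrin, was at 13.4 RPKM in mutant and 16.6 RPKM in control. Psmd5 was slightly higher, at 102 RPKM in mutant and 96.1 RPKM in control, and turned negative after rescaling to germ cell markers and after adjustment for length and GC content. Apart from Psmd5, the chaperone genes lay between 13.4 and 46.3 RPKM in mutant and between 16.6 and 54.5 RPKM in control.

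In 5 further lists of the wider pathway 0 genes passed 2-fold, and the list medians lay between -0.16 and 0.025. Of 10 proteasome associated factors 5 lay above 0 and 5 below, with a median of 0.025. They ranged from Pomp, the maturation factor of the 20S core, at 216 RPKM in mutant and 300.1 RPKM in control, to the deubiquitinase gene Usp14 at 81.6 RPKM in mutant and 66.7 RPKM in control. Of 8 regulators of proteasome transcription 3 lay above 0, with a median of -0.14. The extremes were Nfe2l2 (35.3 RPKM in mutant and 45.4 RPKM in control) and Nfe2l3 (8.86 RPKM in mutant and 6.65 RPKM in control). Nfe2l1, singled out after its value was seen because it encodes the main activator of proteasome genes, was at 86.7 RPKM in mutant and 79.7 RPKM in control. Of 8 ubiquitin and activation genes 4 lay above 0, with a median of -0.032. The highest difference of that list was that of Nae1, part of the NEDD8 activating enzyme, at 90.3 RPKM in mutant and 66.1 RPKM in control. Of 11 shuttle and p97 genes 5 lay above 0, with a median of -0.039. Here the extremes were Ufd1l, a p97 cofactor, at 70.03 RPKM in mutant and 46.9 RPKM in control, and the shuttle gene Ubqln2 at 4.83 RPKM in mutant and 6.68 RPKM in control. The COP9 signalosome, a complex built like the lid, had 4 of 9 genes above 0 and a median of -0.16. Its genes ranged from Cops7b, at 19.97 RPKM in mutant and 25.2 RPKM in control, to Cops2, at 76.3 RPKM in mutant and 62.8 RPKM in control. None of these 5 lists had a median as far from 0 as that of the immunoproteasome genes.

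Genes of the interferon response and antigen processing, which work with the immunoproteasome, had a lower median than those 5 lists, -0.56, with 7 of 10 genes below 0 and none past 2-fold. B2m, the light chain of class I molecules, was at 240.3 RPKM in mutant and 412 RPKM in control. The heavy chain genes H2-D1 and H2-K1 were at 94.5 RPKM in mutant and 161 RPKM in control and at 67.0 RPKM in mutant and 105 RPKM in control. Tap1 and Tap2, the neighbours of Psmb9 and Psmb8, were at 8.40 RPKM in mutant and 11.7 RPKM in control and at 7.79 RPKM in mutant and 11.5 RPKM in control. The interferon gamma receptor genes Ifngr1 and Ifngr2 were at 41.2 RPKM in mutant and 63.5 RPKM in control and at 25.5 RPKM in mutant and 46.6 RPKM in control. Irf1, an interferon-induced factor that activates immunoproteasome genes, lay the other way, at 62.3 RPKM in mutant and 42.4 RPKM in control. So did Nlrc5, an activator of class I genes, at 2.25 RPKM in mutant and 1.62 RPKM in control, and the peptidase gene Erap1, at 26.9 RPKM in mutant and 21.8 RPKM in control. Tapbp and Cd74 were found in entries that pool several symbols and were left out of the count. Genes of the list thus lay on both sides of 0.

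**Figure D4:**
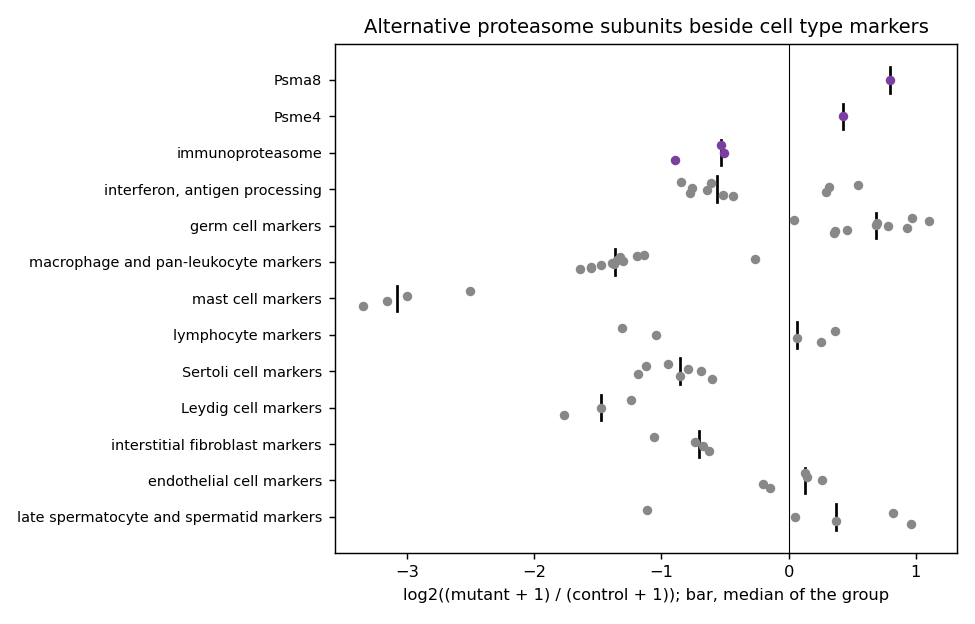
Log2 differences of Psma8, Psme4 and the immunoproteasome genes (purple) above the interferon list and the cell type marker lists (grey). Each point is a gene with an RPKM of 1 or more, and each bar is the median of its row. The immunoproteasome median of -0.53 lies on the same side of 0 as the macrophage and leukocyte median of -1.36, and Psma8 at 0.80 on the same side as the germ cell median of 0.69.

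Markers of several other cell types, though not all, were lower in the mutant, as the immunoproteasome genes were. Their part in the result was not tested. Macrophage and leukocyte markers, from cells that use the immunoproteasome, were lower in the mutant for 12 of 12 genes, 11 of them by 2-fold, and none was at 0. Their sum was 1644 RPKM in mutant and 4562 RPKM in control, 2.78-fold lower, with Lyz2 at 428 RPKM in mutant and 1339 RPKM in control. The 3 immunoproteasome genes together were 1.60-fold lower, at 54.1 RPKM in mutant and 86.7 RPKM in control. Mast cell markers were 10.2-fold lower in sum, at 14.7 RPKM in mutant and 150.2 RPKM in control, with 4 of 4 past 2-fold. The 5 lymphocyte markers measured had a median of 0.069, with 2 of them lower by 2-fold (Cd4 and Cd79b). Sertoli cell markers had a median of -0.85 (7 of 7 below 0), Leydig cell markers -1.48 (3 of 3) and interstitial fibroblast markers -0.70 (4 of 4). The 5 endothelial markers had a median of 0.13, with 3 above 0. Which of these cells held the Psmb8, Psmb9 and Psmb10 RNA cannot be told from bulk values.

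Germ cell markers moved with Psma8 and Psme4, and their part in those differences was not tested either. All 10 were higher in the mutant, with a median of 0.69, which by construction became 0 in the rescaled alternative. Zbtb16, a transcription factor gene of undifferentiated spermatogonia, was the marker past 2-fold on the log2(RPKM + 1) scale. It was at 53.7 RPKM in mutant and 24.4 RPKM in control. Tdrd5, of the piRNA pathway, was 1.93-fold higher. Dppa3 was low, at 3.50 RPKM in mutant and 1.30 RPKM in control. Its plain ratio was 2.69-fold and its log2 difference 0.97. These genes were picked out after their values were seen, and each differed by more than Psma8. Other germ cell markers differed by less than Psma8. Tex101, also picked out after its value was seen, was at 89.1 RPKM in mutant and 86.4 RPKM in control, and Ddx4 was 1.28-fold higher. The sum of the 10 markers was 1128 RPKM in mutant and 805 RPKM in control, 1.40-fold higher, while Psma8 was 1.81-fold and Psme4 1.35-fold higher. Mael, a piRNA pathway gene, was at 219 RPKM in mutant and 159 RPKM in control, and Tex15, needed for meiosis in male mice, was at 120 RPKM in mutant and 69.2 RPKM in control. Of the late spermatocyte and spermatid list, 4 of 5 measured genes lay above 0. In that list Sycp1, of the synaptonemal complex in meiosis, was at 83.0 RPKM in mutant and 42.1 RPKM in control. The testis-specific linker histone gene Hist1h1t was at 33.9 RPKM in mutant and 18.7 RPKM in control. Piwil1 and Ldhc, made in spermatocytes, were low, at 3.23 RPKM in mutant and 2.27 RPKM in control and at 2.64 RPKM in mutant and 2.51 RPKM in control. Adam3, a sperm surface gene, went the other way, at 0.542 RPKM in mutant and 2.34 RPKM in control. Ccna1, Pgk2, Acrv1 and Spag6 stayed under an RPKM of 1 in both genotypes.

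Many proteasome transcripts are short, and protein-coding genes with short transcripts had a lower median log2 difference than those with long ones. The part of length in the family's differences was not tested. The median length of the longest annotated transcript was 1561 nt over the 48 genes and 3077 nt over the 12202 protein-coding genes. Those in the shortest length decile, up to 1233 nt, had a median log2 difference of -0.27, and those in the longest decile one of 0.15. Within the family, Spearman's rho between log2 difference and length was 0.324 over 47 genes, and between log2 difference and GC content -0.473. Over the 31 constitutive genes the values were 0.154 and -0.285, and over all protein-coding genes 0.228 and -0.213. These are descriptions across genes of the same 2 columns and carry no p. After adjustment for length and GC content, the constitutive median was -0.038, with 13 genes above 0 and 18 below. The adjustment was fitted over the protein-coding genes, whose median before it was -0.064. The comparison median after it was -0.074, and 12 of the 31 constitutive genes lay below that value. Psmb8 was then at -0.70, Psma8 at 0.81 and Psme4 at 0.24. Psmb9 and Psmb10 were both at -0.29, nearer to 0 than the alpha ring genes Psma2 at -0.39 and Psma3 at -0.44. As deposited the order was the reverse, with Psma2 at -0.22 and Psma3 at -0.31. Their adjusted values rest on longest annotated transcripts of 2911 nt for Psma2 and 2846 nt for Psma3.

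**Figure D5:**
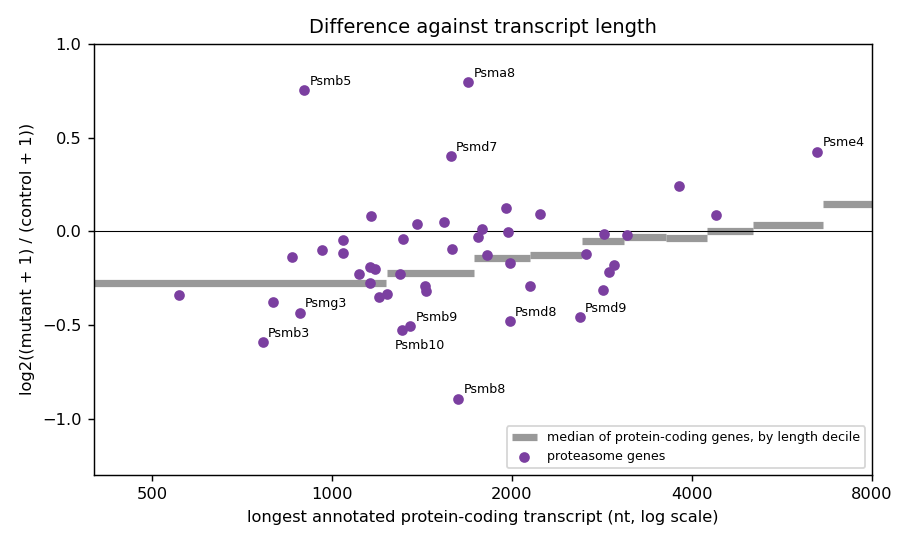
Log2 difference of the 47 proteasome genes (purple) against the length of the longest annotated protein-coding transcript, on a log axis. Grey bars show the median of all protein-coding genes in each length decile, from -0.27 for the shortest to 0.15 for the longest. Most proteasome genes lie near the grey bars, with Psma8 and Psmb5 above them and Psmb8 below.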

How the data were processed

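Total RNA of THY1-selected spermatogonia was sequenced in 4 libraries. The submitters' processing notes name TopHat2 2.0.11 and GRCm38, while the sources used here name no counting program or annotation. The authors deposited RPKM, as their file header says, combining the libraries of each genotype in a column, so the planned moderated test per library could not be run. The members and gene lists were chosen with earlier results of these data known. Every member is named; of each other list, the genes past 2-fold or else the 2 extremes, interferon list genes with an entry of their own, and up to 4 most abundant markers; some list genes are not reported here. Of 49 entries, the higher of 2 was used for Psmd5; 3 entries (Psmb5, Psmd1, Psmg3) pool other symbols. Intervals in the table matched GENCODE M21 exactly for 23 of 48 genes, and 20 share an interval with another entry. Background genes were 1 entry per symbol, without pooled entries, at an RPKM of 1 or more. Depth came from RPKM times transcript length less 210 nt (mutant) or 200 nt (control): a tolerance of 0.1 read took in 95.3% of 900 low mutant values and 90.5% of 884 low control values. Read numbers take the longest transcript and are approximate. Strand use is not stated, and reads shared with processed pseudogenes may be split. Calculations used Python 3.11.15, numpy 2.4.6, pandas 2.3.3 and scipy 1.17.1, and were tested on simulated data.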

Additional observations from a re-analysis of the deposited data

How the results depend on the processing

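With pseudocounts of 0.1 and 0.5, no filter or a filter of RPKM 5, the constitutive median stayed at -0.13. The immunoproteasome median then lay between -0.55 and -0.53. The number of members past 2-fold stayed at 0, while Psma8 moved to 0.85 at a pseudocount of 0.1. The constitutive median (-0.13) turned to 0.0061 with quantile normalization and to 0.031 with equal column sums, and was -0.038 after adjustment for length and GC content. After that adjustment, fitted over protein-coding genes, the comparison median was -0.074, and 12 of the 31 constitutive genes lay below it. The median of protein-coding genes before adjustment was -0.064. The immunoproteasome median (-0.53) was -0.38 with equal column sums and -0.29 after that adjustment. Equal column sums, under which the constitutive median was -0.11 relative to all genes, moved the median of all genes to 0.14, and rescaling to the germ cell list moved it to -0.58. Under that rescaling the constitutive median was -0.83, the immunoproteasome median -1.20 and the number of members past 2-fold 13; relative to the shifted median of all genes the medians were -0.25 and -0.62. At 1.5-fold, chosen after seeing the data, 4 members passed. The log2 ratio of inducible to constitutive subunits (-0.64) was -0.76 with quantile normalization and -0.25 without pooled entries; it takes no pseudocount, filter or adjustment. The cause of these shifts was not tested. Signs changed for 10 members with quantile normalization and 10 after adjustment for length and GC content. Leaving out a replicate was not run, because the columns combine both libraries. No paired analysis was possible because the columns carry 1 value per genotype.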

Other observations

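Some entries carry proteasome-like symbols but are no members. Psmc3ip, which encodes the recombination factor HOP2 and no proteasome subunit, was at 14.5 RPKM in mutant and 21.9 RPKM in control, a log2 difference of -0.56. The pseudogene entry Psmb6-ps stood at 0.244 RPKM in mutant and 0.177 RPKM in control, while its parent gene Psmb6 stood at 240 RPKM in mutant and 312 RPKM in control. Psmb5-ps and Psmb6-ps2 were listed at 0 in both genotypes. The paralog Psme2b shared an entry with 9930111J21Rik1, at 0.927 RPKM in mutant and 1.26 RPKM in control.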
